A study of Homo sapiens with 11 samples.

Results

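The genes described here are 44 genes of the endoplasmic reticulum (ER) that sense unfolded proteins, fold newly made secretory proteins or send misfolded ones to degradation. They were taken as a named list, by gene symbol, in each of 2 deposited tables of RNA-seq abundances from ARP1 cells, an IgA kappa producing line from human multiple myeloma. All 44 were among the 14458 genes of the knockdown table, where SELS was found under its newer symbol VIMP and ERO1LB as ERO1B, and all 44 were tested. Of the 44, 39 were among the 11062 genes listed for overexpression, SELS again as VIMP, and 38 were tested. MBTPS2 was under the filter on low values there, and ATF6B, HSP90B1, TXNDC5, SYVN1 and DERL3 had no row in that table. The list holds 7 genes for sensors and their regulators, 21 for folding and 16 for ER-associated degradation (ERAD).

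PHF19 is a protein that joins Polycomb repressive complex 2 as an accessory factor. The knockdown table compares 3 libraries of ARP1 cells with PHF19 shRNA with 3 scramble libraries. The overexpression table compares 2 libraries of ARP1 cells that received a PCDH lentiviral plasmid with the PHF19 open reading frame, and were sorted for overexpression, with 3 libraries that received the empty PCDH plasmid. Virus was packaged in HEK293T cells; how the shRNA was delivered, the hairpin used and whether replicates were separate cultures are not stated in the labels, so p-values measure the spread between these libraries, which may be technical. The genotype tag of the shRNA and scramble libraries repeats the overexpression wording, and groups were read from the titles. PHF19 itself stood at 75.2, 103 and 108 in shRNA libraries, against 113, 152 and 123 in scramble libraries (log2 fold change -0.44, SE 0.17, limma adjusted p = 0.147, or 0.0445 with the replicate number as a block). The groups did not overlap, and their means were 95.3 ± 17.5 and 129 ± 20.3 (SD, n = 3 each). With 1 library left out the knockdown difference ran from -0.54 to -0.28 and passed in 0 of 6 fits. The blocked limma call was lost with median-of-ratios scaling (adjusted p = 0.0555) and kept without replicate 1 of both groups (0.00305). PHF19 stood at 227 and 213 in overexpression libraries, against 111, 119 and 115 in empty vector libraries (0.93, SE 0.09, adjusted p = 0.0438). The PHF19 log2 fold change was 0.75 to 0.97 over the alternatives. Its limma test passed in 1 of 5 fits with 1 library left out, the one without empty vector replicate 5 (adjusted p 0.0349 to 0.264 over the 5). It also missed the threshold under quantile normalisation (0.166), without genes listed at 0 (0.156), without trend and robust variances (0.0781), with a filter at 5 (0.065), under median-of-ratios scaling (0.0548) and with a pseudocount of 0.1 (0.0532).

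In plasma cells, which secrete immunoglobulin in bulk, the unfolded protein response matches the folding capacity of the ER to its load. ERN1 (IRE1), ATF6 and PERK sit in the ER membrane, and the chaperone HSPA5 (BiP) binds them when few unfolded proteins are present. Activated ERN1 splices XBP1 mRNA, ATF6 is cut by the site proteases into a transcription factor, and PERK phosphorylates eIF2 and thereby raises translation of ATF4. XBP1 and ATF6 act on chaperone and ERAD genes, partly through short promoter elements called ERSE and ERSE-II. In ERAD, misfolded proteins are recognised, moved through the ER membrane, ubiquitinated and pulled out to the proteasome.

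The promoters of 41 of the 44 genes were found in RefSeq (GRCh38.p14, 250 bases before the annotated start to 50 after), the exceptions being PDIA3, DERL1 and DERL3. ERSE was searched as CCAAT and CCACG with 9 bases between them, ERSE-II as ATTGG and CCACG with 1 base between them, the XBP1 element UPRE as TGACGTGG, and the element of ATF4 and CHOP (CARE) as TGATG, any base, AA, each on both strands. ERSE was present in 6 of the 41 promoters (14.6%), against 27 of 35116 RefSeq promoters (0.0769%). All 6 were among the 20 folding promoters, and 0 of 7 sensor and 0 of 14 ERAD promoters held it. ERSE-II was present in 3 of 41 (HYOU1, SDF2L1 and HERPUD1), against 19 of all promoters (0.0541%). UPRE was present in 5 of 41 (HYOU1, DNAJC10, UBE2J1, VCP and TXNDC11), against 256 of all promoters (0.729%). CARE was present in 1 of 41, HERPUD1, against 1270 of all promoters (3.62%). A match is a description of the letters only.

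The stretches around each ERSE or ERSE-II match are shown because these 9 genes divide in the knockdown: several chaperones stood lower, and the ERAD gene HERPUD1 stood higher. Each runs 5′ to 3′ on the gene's strand, with up to 30 bases on either side of the outermost match. Capitals mark the matches, with the bases between their 2 ends included.
HSPA5, chr9:125241361-125241439, minus strand, one ERSE: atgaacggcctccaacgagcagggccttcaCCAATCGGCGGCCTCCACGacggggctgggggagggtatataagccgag
HSP90B1, chr12:103930186-103930369, plus strand, ERSE in both orientations: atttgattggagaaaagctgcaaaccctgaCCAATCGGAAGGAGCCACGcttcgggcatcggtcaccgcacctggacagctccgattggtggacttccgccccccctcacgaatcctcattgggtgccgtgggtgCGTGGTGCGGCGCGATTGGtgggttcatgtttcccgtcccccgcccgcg
CALR, chr19:12938359-12938432, plus strand, ERSE on the opposite strand: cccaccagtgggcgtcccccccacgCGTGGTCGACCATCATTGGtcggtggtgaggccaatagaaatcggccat
CANX, chr5:179698748-179698826, plus strand, ERSE: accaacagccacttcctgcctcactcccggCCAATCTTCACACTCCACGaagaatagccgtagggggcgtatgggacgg
ERO1LB, chr1:236282153-236282208, minus strand, ERSE on the opposite strand: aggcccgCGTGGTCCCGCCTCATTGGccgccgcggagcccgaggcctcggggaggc
CRELD2, chr22:49918524-49918602, plus strand, ERSE on the opposite strand: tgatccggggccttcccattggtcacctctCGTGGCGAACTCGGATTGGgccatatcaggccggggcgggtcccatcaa
HYOU1, chr11:119057244-119057423, minus strand, ERSE-II in both blocks of capitals, the first overlapping a UPRE: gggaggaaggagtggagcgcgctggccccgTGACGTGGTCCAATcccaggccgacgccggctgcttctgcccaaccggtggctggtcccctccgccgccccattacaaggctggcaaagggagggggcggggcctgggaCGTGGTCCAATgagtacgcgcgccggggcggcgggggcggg
SDF2L1, chr22:21642084-21642154, plus strand, ERSE-II on the opposite strand: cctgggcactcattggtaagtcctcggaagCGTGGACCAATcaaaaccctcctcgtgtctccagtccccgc
HERPUD1, chr16:56931936-56932065, plus strand, a CARE on the opposite strand and then an ERSE-II: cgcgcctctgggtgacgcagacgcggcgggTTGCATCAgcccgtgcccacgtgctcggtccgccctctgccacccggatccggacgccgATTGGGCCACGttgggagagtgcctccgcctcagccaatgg

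**Figure D1:**
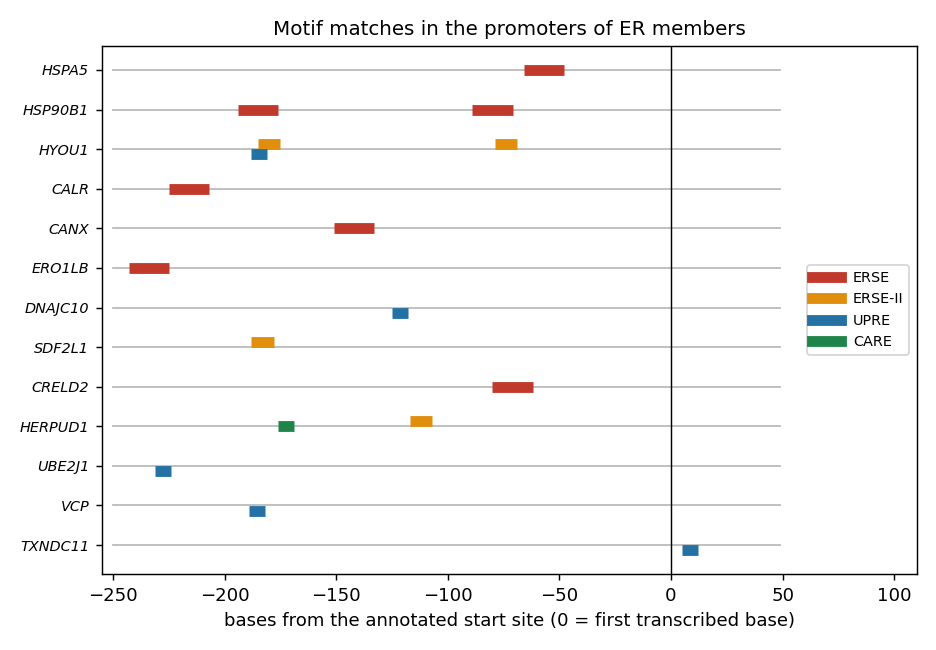
Positions of the motif matches in the promoters of the 13 members that hold any, as bases from the annotated start site (x axis, 0 is the first transcribed base), 1 grey line per gene. Red (ERSE) blocks lie only on folding genes, and HERPUD1 is the only gene with a CARE.

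The values are abundances of FPKM type, normalised for length and depth by the authors, so levels can be set side by side between genes. Folding genes were the most abundant class in scramble libraries, with mean levels of 1.14 to 758 and a median of 120, against 26.4 for ERAD genes (9.66 to 108), 9.78 for sensors (3.71 to 40.9) and 12.2 for all 10900 genes tested. TXNDC5, a disulfide isomerase, CALR and PDIA6 led the folding class, and VCP, SELS and OS9 led ERAD. Of 11 plasma cell markers, 8 had a row in the knockdown table. SDC1, PRDM1, IRF4 and TNFRSF17 stood at 62.0 or more in each knockdown library, and MZB1 at 104 or more. CD38 (2.16 to 8.43), SLAMF7 (5.42 to 17.9) and POU2AF1 (9.76 to 18.3) were lower. The immunoglobulin genes IGHA1, IGKC and IGJ had no row there. Of markers of other types, B cell, T cell, myeloid and fibroblast genes each summed to at most 2.81 in any knockdown library.

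**Figure D2:**
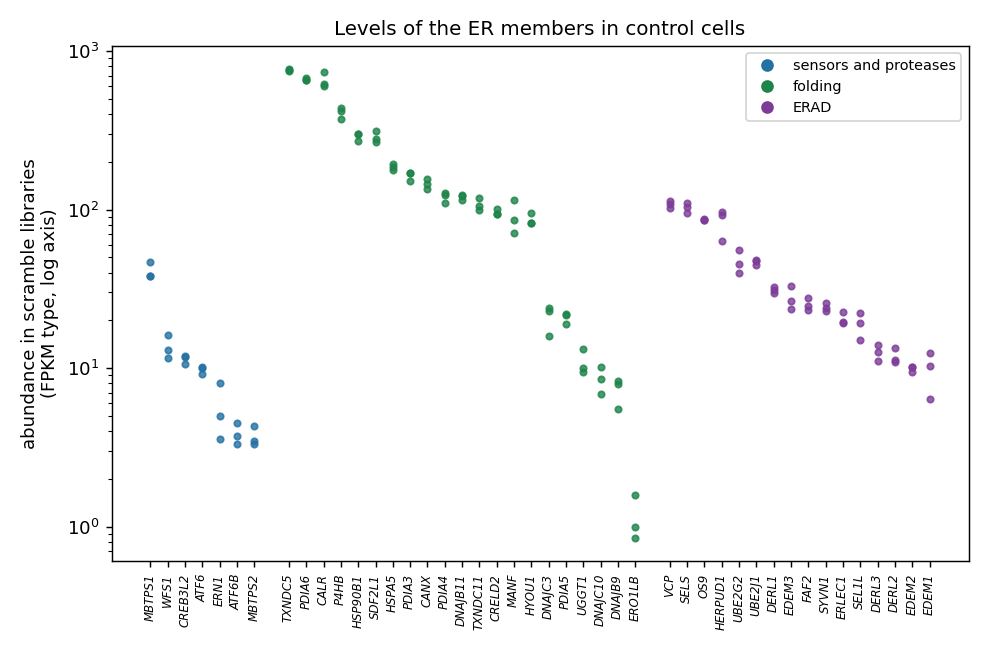
Abundance (FPKM type, log axis) of the 44 members in the 3 scramble libraries, 1 point per library, grouped by class and ordered by mean. Folding members such as TXNDC5 and CALR lie above 600 and the sensors ATF6B and MBTPS2 under 5.

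After PHF19 knockdown, among the sensors, ERN1, ATF6B and CREB3L2 rose, and among ERAD genes EDEM1 rose. No folding member passed the threshold, but 13 of 21 lay below 0, and CALR, TXNDC5, MANF and SDF2L1 passed as lower once the replicate number was a block. The 4 members that rose are 9.09% of 44, where 4.24% of all genes tested were called higher and 1.28% lower (limma, Benjamini-Hochberg over 10900 genes, threshold 0.05), with 0 members called lower. With the block 5 members rose and 4 fell (11.4% and 9.09%), where 8.2% of all genes were higher and 3.68% lower. At an unadjusted p under 0.05, 7 members were higher and 9 lower, together 36.4% of members, against 24.1% of all genes, and limma without trend and robust variances called 3 higher and 0 lower.

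Groups did not overlap for 8 members that were higher (18.2%) and 14 that were lower (31.8%), where 18.9% of all genes were higher and 13% lower in that way. The higher share is that of the background, and the lower share is above it. The lower ones were unevenly spread: 11 of the 21 folding members, 3 of the 16 ERAD members and 0 of the 7 sensors. The higher ones were 3 sensors, 4 ERAD members and 1 folding member, P4HB. The median log2 fold change was 0.17 over sensors, -0.14 over folding members and 0.03 over ERAD members, against 0.03 over all genes tested, and the difference between classes was not tested. Over the alternatives and fits with 1 library left out, the sensor median ran from 0.08 to 0.41 and the folding median from -0.20 to -0.09. The ERAD median ran from -0.0078 under median-of-ratios scaling to 0.0875 without shRNA replicate 1.

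**Figure D3:**
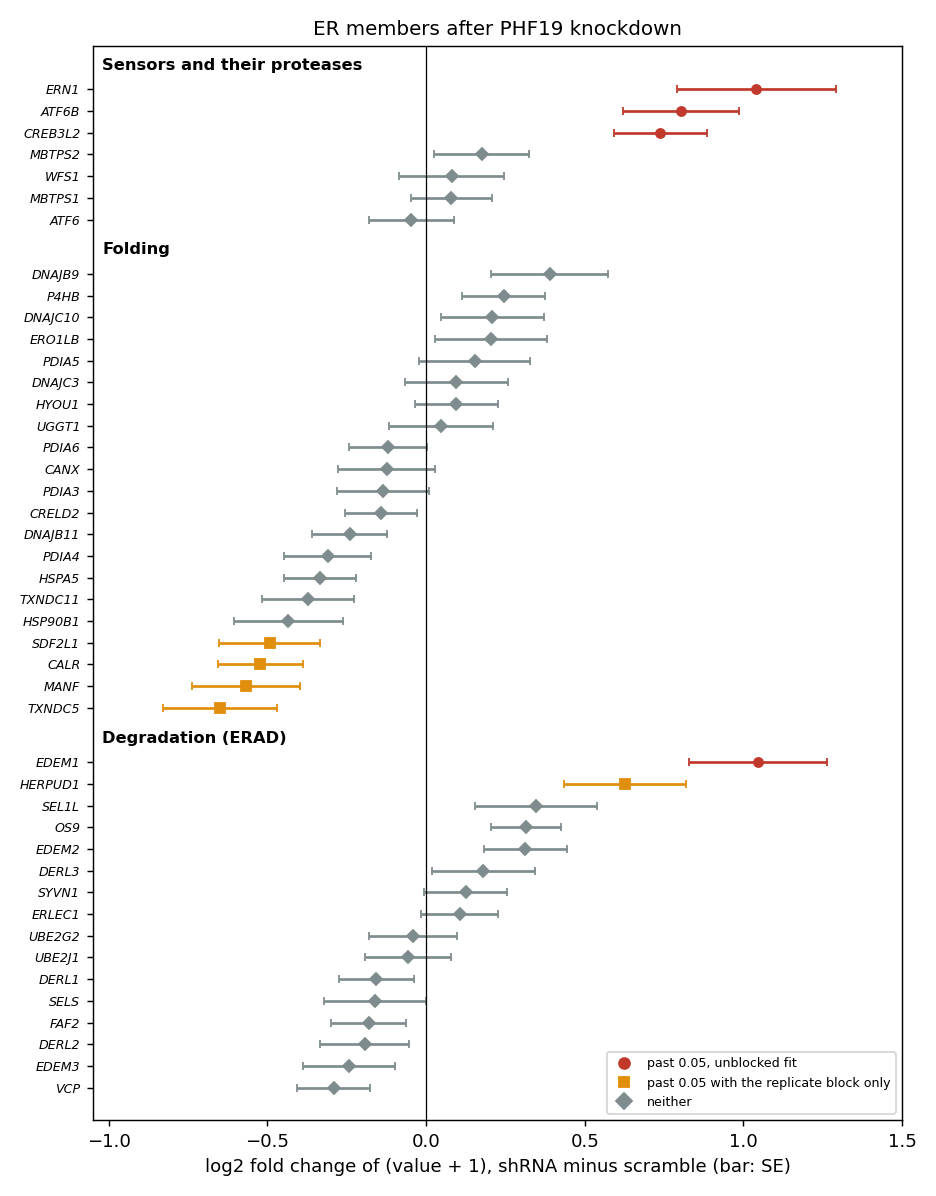
Log2 fold change of value + 1, shRNA minus scramble, of the 44 members (x axis; bars are the SE of limma), ordered within each class. Red circles passed the threshold, orange squares passed it only with the replicate block, and grey diamonds passed neither; EDEM1 and ERN1 lie near 1.0 and TXNDC5 is lowest at -0.65.

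ERN1, the kinase and endoribonuclease that splices XBP1 mRNA, stood at 9.11, 12.5 and 14.7 in shRNA libraries, against 3.57, 4.98 and 8.02 in scramble libraries. All 3 shRNA libraries were above all scramble libraries. The log2 fold change was 1.04 (SE 0.25, adjusted p = 0.0433). ATF6B, the paralogue of ATF6, stood at 5.73, 7.91 and 9.03 in shRNA libraries, against 4.53, 3.73 and 3.33 in scramble libraries. The groups again did not overlap (0.80, SE 0.18, adjusted p = 0.0357). CREB3L2, an ER membrane transcription factor that the site proteases release, stood at 21.3, 16.3 and 22.1 in shRNA libraries, against 11.8, 10.6 and 11.9 in scramble libraries, again with no overlap (0.74, SE 0.15, adjusted p = 0.0246).

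The other members of the sensor class lay close to 0. ATF6, the paralogue whose cleaved form drives chaperone genes, stood at 8.51, 10.1 and 9.74 in shRNA libraries, against 10.1, 9.23 and 10.0 in scramble libraries (log2 fold change -0.05, SE 0.13, adjusted p = 0.863). The ranges of the 2 groups overlapped. The proteases that cut both, MBTPS1 and MBTPS2, gave 0.08 (SE 0.13, adjusted p = 0.739) and 0.17 (SE 0.15, adjusted p = 0.511). WFS1, an ER membrane protein that restrains ATF6 signalling in pancreatic beta cells, gave 0.08 (SE 0.17, adjusted p = 0.801).

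Among ERAD genes the largest difference was in EDEM1, which trims mannose from misfolded glycoproteins and marks them for disposal. It stood at 16.9, 21.96 and 22.7 in shRNA libraries, against 6.34, 10.3 and 12.4 in scramble libraries. The lowest shRNA library was above the highest scramble library (log2 fold change 1.05, SE 0.22, adjusted p = 0.0274). Its relatives differed from it in size: EDEM2 gave 0.31 (SE 0.13, adjusted p = 0.18) without overlap, and EDEM3 gave -0.24 (SE 0.14, adjusted p = 0.337) with overlap. OS9, the lectin that hands trimmed glycoproteins to the ubiquitin ligase, stood at 114, 104 and 105 in shRNA libraries, against 86.5, 87.7 and 85.4 in scramble libraries. These groups were well separated although the test was not passed (0.31, SE 0.11, adjusted p = 0.121). The other glycan-binding lectin, ERLEC1, gave 0.11 (SE 0.12, adjusted p = 0.631).

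HERPUD1, a scaffold of the membrane ligase complex and the member with both an ERSE-II and a CARE in its promoter, stood at 103, 146 and 141 in shRNA libraries, against 63.2, 96.4 and 93.1 in scramble libraries. In both groups replicate 1 was the lowest library, and each shRNA library was above every scramble library. The log2 fold change was 0.63 (SE 0.19, adjusted p = 0.0846), and it passed with the replicate block (adjusted p = 0.00947). The ligase SYVN1 (HRD1) and its partner SEL1L gave 0.12 (SE 0.13, adjusted p = 0.593) and 0.35 (SE 0.19, adjusted p = 0.302). DERL1, DERL2 and DERL3, derlins of the membrane channel, ran from -0.19 to 0.18, and the ubiquitin-conjugating enzymes UBE2J1 and UBE2G2 lay at -0.06 and -0.04. VCP, the ATPase that pulls substrates from the membrane, stood at 94.0, 87.5 and 82.8 in shRNA libraries, against 114, 102 and 109 in scramble libraries, without overlap (-0.29, SE 0.12, adjusted p = 0.16). FAF2, an adaptor that recruits VCP, gave -0.18 (SE 0.12, adjusted p = 0.384), also without overlap, and SELS, a VCP receptor in the membrane, gave -0.16 (SE 0.16, adjusted p = 0.575) with overlap. Of the recognition genes 4 of 5 lay above 0, with EDEM3 below, and of the extraction genes (VCP and FAF2) 2 of 2 lay below. Over all genes 5934 of 10900 lay above 0. Among these recognition and extraction genes EDEM1 alone passed, and the counts are not a test of a difference between them.

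**Figure D4:**
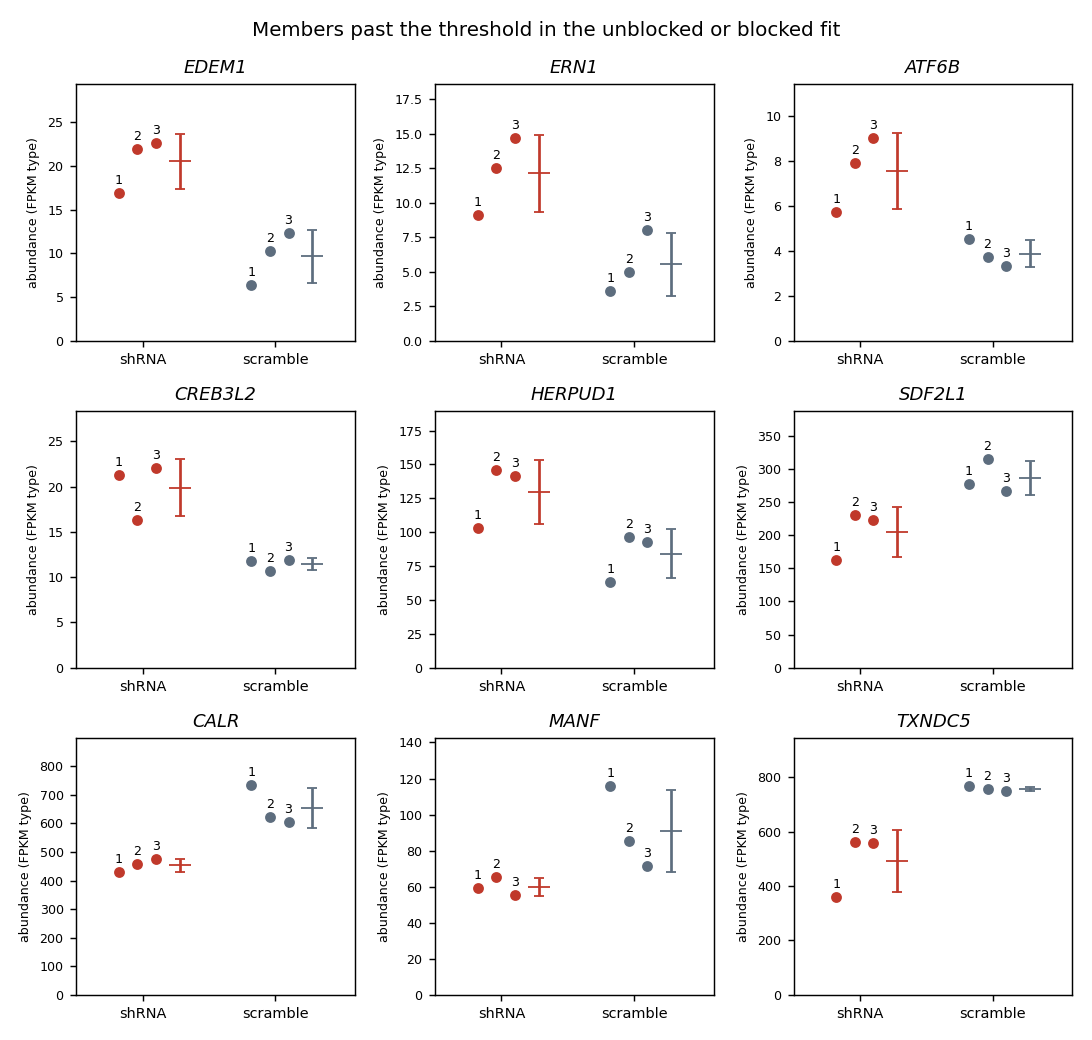
Abundance (FPKM type, y axes from 0) of the 9 members past the threshold in either fit, in shRNA libraries (red, left) and scramble libraries (grey, right), with replicate numbers and mean ± SD (n = 3 each). The groups do not overlap in any panel; EDEM1, ERN1, ATF6B, CREB3L2 and HERPUD1 are higher in shRNA libraries, and SDF2L1, CALR, MANF and TXNDC5 lower.

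The folding genes were described by their abundant members. CALR, a lectin chaperone that holds glycoproteins for folding, stood at 430.05, 457 and 475 in shRNA libraries, against 734, 624 and 607 in scramble libraries. The gap between the groups was wider than the spread within either (log2 fold change -0.52, SE 0.13, adjusted p = 0.0513, or 0.0309 with the block). The membrane-bound lectin chaperone CANX gave -0.12 (SE 0.15, adjusted p = 0.654), and UGGT1, which returns unfolded glycoproteins to both, gave 0.05 (SE 0.16, adjusted p = 0.887). Of the lectin cycle, CALR alone had groups without overlap.

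TXNDC5 stood at 360, 561 and 558 in shRNA libraries, against 767, 756 and 751 in scramble libraries. The first shRNA library was far below the other 2, and scramble libraries were close together (-0.65, SE 0.18, adjusted p = 0.0648, or 0.0301 with the block). Disulfide enzymes as a class of 8 had a median of -0.13. PDIA6 stood at 596, 629 and 604 in shRNA libraries, against 678, 655 and 657 in scramble libraries (-0.12, SE 0.12, adjusted p = 0.581), a small difference without overlap. TXNDC11 gave -0.37 (SE 0.14, adjusted p = 0.152). P4HB, the classical protein disulfide isomerase, lay on the higher side, at 444, 499 and 518 in shRNA libraries, against 375, 418 and 439 in scramble libraries (0.24, SE 0.13, adjusted p = 0.289). PDIA3, PDIA4, PDIA5 and the oxidase ERO1LB, the least abundant member, ran from -0.31 to 0.20, none past the threshold.

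HSPA5 (BiP), the HSP70 chaperone at the centre of the response, stood at 149.7, 149 and 143 in shRNA libraries, against 194, 177 and 187 in scramble libraries. The groups were separate with little spread in shRNA libraries (-0.33, SE 0.11, adjusted p = 0.112). HSP90B1 (GRP94), its HSP90 partner, stood at 164, 260.1 and 231 in shRNA libraries, against 270, 302 and 300.02 in scramble libraries (-0.43, SE 0.17, adjusted p = 0.158). MANF, which binds HSPA5 and stabilises it with its clients, stood at 59.2, 65.2 and 55.4 in shRNA libraries, against 116, 85.5 and 71.3 in scramble libraries. Scramble libraries spread widely, and none reached down to the shRNA libraries (-0.57, SE 0.17, adjusted p = 0.0828, or 0.0327 with the block). SDF2L1, which works with DNAJB11 on HSPA5 clients, stood at 162, 231 and 223 in shRNA libraries, against 278, 315 and 267 in scramble libraries (-0.49, SE 0.16, adjusted p = 0.097, or 0.0398 with the block). DNAJB11 itself gave -0.24 (SE 0.12, adjusted p = 0.245) and CRELD2 -0.14 (SE 0.11, adjusted p = 0.474), both without overlap. DNAJB9, DNAJC3, DNAJC10 and HYOU1 ran from 0.10 to 0.39, each with overlapping groups.

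Summed over the class, folding members came to 3077, 3740 and 3681 in shRNA libraries, against 4265, 4254 and 4230.06 in scramble libraries, so the first shRNA library was lowest and the groups were apart. This sum is weighted to abundant members such as TXNDC5 (mean 493 in shRNA and 758 in scramble libraries) and CALR (454 and 655). By log2 fold change, 13 of the 21 folding members lay below 0 and 8 above. ERAD members summed to 659, 748 and 732 in shRNA libraries, against 643, 676 and 681 in scramble libraries, with overlap. The sum of sensors was 101, 109.5 and 122 in shRNA libraries, against 83.0, 83.1 and 100.2 in scramble libraries. The sum of plasma cell markers lay lower beside the folding sum, with 8 of 11 in the table. It was 513 to 794 in shRNA libraries and 839 to 899 in scramble libraries. MZB1, an ER protein of plasma cells, was part of it, at 104, 206 and 210.2 in shRNA libraries and 322, 266 and 217 in scramble libraries. MZB1 and TNFRSF17 had lower groups without overlap. The groups of SDC1, CD38, SLAMF7, PRDM1, IRF4 and POU2AF1 overlapped, at -0.39 to -0.03. None of the 8 passed the test, with or without the block. Epithelial markers, 2 of 5 in the table, summed to 5.61 to 7.19 in shRNA libraries and 9.82 to 14.6 in scramble libraries. The lower sum was that of KRT18 (-0.99, adjusted p = 0.0137), while KRT8 gave 0.08 with overlap (adjusted p = 0.881). The part of these markers in the folding values was not tested, and fewer cells of a kind and less RNA per cell cannot be told apart in bulk libraries.

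Set against the promoter sequences, 6 of the 8 folding members with an ERSE or ERSE-II lay below 0 and 5 had lower groups without overlap (HSPA5, HSP90B1, CALR, SDF2L1 and CRELD2), with a median of -0.24. Of the 12 folding members whose promoter held neither, 6 lay below 0, 6 were lower without overlap, among them MANF and TXNDC5, and the median was -0.04. Both kinds of folding gene thus included lower members. HERPUD1, which carries an ERSE-II outside the folding class, was on the other side, and the promoters of ERN1, ATF6B, CREB3L2 and EDEM1 held none of the 4 motifs in this window.

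The 4 rises rested on few libraries. The count was 5 without shRNA replicate 1 (with HERPUD1), 1 without shRNA replicate 2 (CREB3L2), 2 without scramble replicate 3 (ERN1 and EDEM1), and 0 without shRNA replicate 3, scramble replicate 1 or scramble replicate 2. In the same fits the 462 genes higher over the whole table became 500, 228, 143, 154, 50 and 57, and the 139 lower became 129, 57, 21, 26, 4 and 1. The higher count over all genes thus dropped in the same 5 fits as the count of members that rose. The lower count over all genes dropped in every fit. Over these fits the log2 fold change ran from 0.81 to 1.30 for ERN1 (adjusted p 0.0278 to 0.151), from 0.68 to 0.97 for ATF6B (0.0109 to 0.136), from 0.66 to 0.87 for CREB3L2 (0.0302 to 0.111) and from 0.80 to 1.23 for EDEM1 (0.0203 to 0.0965). All 4 kept their direction in each. ERN1 missed the threshold without trend and robust variances (adjusted p = 0.0533), ATF6B under quantile normalisation (0.0697), and with no filter on low values CREB3L2 alone passed (0.0487).

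Another 109 genes of these pathways were listed from general knowledge, but with earlier results of these data known. Their share is therefore not independent of these data. Of them 103 were tested in the knockdown, and 12 rose (11.7%) and 1 fell (0.971%), where 4.24% of all genes were higher and 1.28% lower. With the block 14 rose (13.6%) and 3 fell (2.91%), where 8.2% and 3.68% of all genes did, and the added rises were CREB3L4 and MAN1B1. UPR signalling genes made up 7 of the 12, from 16 tested, with 3 of 48 in folding and 2 of 39 in ERAD. CHAC1, a glutathione-degrading enzyme that ATF4 induces, stood at 44.8, 60.1 and 66.1 in shRNA libraries, against 4.60, 9.11 and 9.41 in scramble libraries (2.77, SE 0.24, adjusted p = 0.00136). ATF4 gave 0.76 (SE 0.13, adjusted p = 0.0178), DDIT3 (CHOP) 1.41 (SE 0.19, adjusted p = 0.00675), TRIB3 1.70 (SE 0.29, adjusted p = 0.0175) and ATF3 1.15 (SE 0.20, adjusted p = 0.0178). PPP1R15A, which reverses eIF2 phosphorylation, gave 0.62 (SE 0.12, adjusted p = 0.0228). NFE2L1, an ER-anchored transcription factor for proteasome genes, gave 1.07 (SE 0.19, adjusted p = 0.0169), and TMEM129, an ER ubiquitin ligase, gave 0.88 (SE 0.14, adjusted p = 0.0137). XBP1, whose mRNA ERN1 splices, stood at 214, 442 and 421 in shRNA libraries, against 360, 525 and 475 in scramble libraries, with overlap (-0.39, SE 0.27, adjusted p = 0.408). Its difference rested on shRNA replicate 1, without which it was -0.0546, and it reached -0.58 without shRNA replicate 2. Gene-level values do not separate its spliced form. EIF2AK3 (PERK) gave 0.24 (SE 0.15, adjusted p = 0.356). RCN3, a calcium-binding ER protein, was the single fall, at 1.62, 1.96 and 1.54 in shRNA libraries, against 3.70, 4.44 and 3.27 in scramble libraries (-0.82, SE 0.16, adjusted p = 0.0228), and BHLHA15 and UFD1L joined it with the block. RCN3 did not pass without shRNA replicate 3 or without any 1 scramble library. The count of 12 was 5 without shRNA replicate 2, 4 without shRNA replicate 3, 2 without scramble replicate 1 or 2, and 6 without scramble replicate 3.

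With PHF19 overexpressed, no member was called in either direction, where 0.613% of 10279 genes were higher and 0.302% lower. At an unadjusted p under 0.05, 2 were higher (P4HB and PDIA6) and 1 lower (EDEM3), together 7.89% of members, against 11.5% of all genes, and limma without trend and robust variances also called 0. Groups did not overlap for 8 of 38 members that were higher (21.1%) and 1 that was lower (2.63%), where 23.1% of all genes were higher and 11.1% lower in that way, so the higher share is near the background. Many genes of this table are listed at exactly 0 in some libraries, among them 7 members, and with such genes left out limma called 0 of 8665 genes, with 3 members at an unadjusted p under 0.05. With 1 library left out, PDIA5 passed as higher without empty vector replicate 4 (adjusted p = 0.00933) and ATF6 as lower without overexpression replicate 1 (adjusted p = 0.0183), both genes being listed at 0 in some library.

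P4HB stood at 454 and 495 in overexpression libraries, against 296, 341 and 391.7 in empty vector libraries (log2 fold change 0.48, SE 0.15, adjusted p = 0.39). Both overexpression libraries were above the empty vector range, and PDIA6 (0.25, SE 0.08, adjusted p = 0.398) and PDIA3 (0.41, SE 0.19, adjusted p = 0.4997) were arranged in the same way. OS9 stood at 116 and 123 in overexpression libraries, against 70.3, 80.4 and 103 in empty vector libraries (0.51, SE 0.19, adjusted p = 0.441). EDEM3 was the member on the low side, at 33.9 and 28.4 in overexpression libraries, against 44.8, 42.2 and 46.9 in empty vector libraries (-0.51, SE 0.13, adjusted p = 0.323). CRELD2, DERL1, EDEM2 and WFS1 were the remaining members with higher groups, at 0.15 to 0.46, the groups of EDEM2 only just apart. Over the alternatives the lowest log2 fold change was 0.065 for PDIA6, 0.067 for CRELD2 and 0.0075 for DERL1. For P4HB, PDIA3, OS9, EDEM2 and WFS1 the lowest was 0.23 to 0.33.

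Several of the genes named for the knockdown spread widely among empty vector libraries. ERN1 stood at 26.7 and 24.5 in overexpression libraries, against 6.30, 10.9 and 50.1 in empty vector libraries (0.69, SE 0.94, adjusted p = 0.807). Empty vector replicate 5 held the highest value, and without it the log2 fold change was 1.51 (adjusted p = 0.0873). HERPUD1 stood at 100.06 and 99.1 in overexpression libraries, against 71.9, 99.7 and 163 in empty vector libraries (-0.08, SE 0.38, adjusted p = 0.944), and the sign changed without that library (0.23, adjusted p = 0.486). EDEM1 stood at 23.0 and 21.1 in overexpression libraries, against 11.8, 16.8 and 22.8 in empty vector libraries (0.39, SE 0.30, adjusted p = 0.646). CALR stood at 564 and 609 in overexpression libraries, against 513, 681 and 379 in empty vector libraries (0.20, SE 0.27, adjusted p = 0.808), and HSPA5 at 131 and 137 in overexpression libraries, against 144, 205 and 116 in empty vector libraries. Of the members with no 0, empty vector replicate 5 was the highest of the 3 for 9 of 11 ERAD genes and the lowest for 10 of 17 folding genes. CREB3L2 gave 0.16 (SE 0.25, adjusted p = 0.834), MBTPS1 0.01 (SE 0.13, adjusted p = 0.976) and SELS 0.04 (SE 0.19, adjusted p = 0.946).

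**Figure D5:**
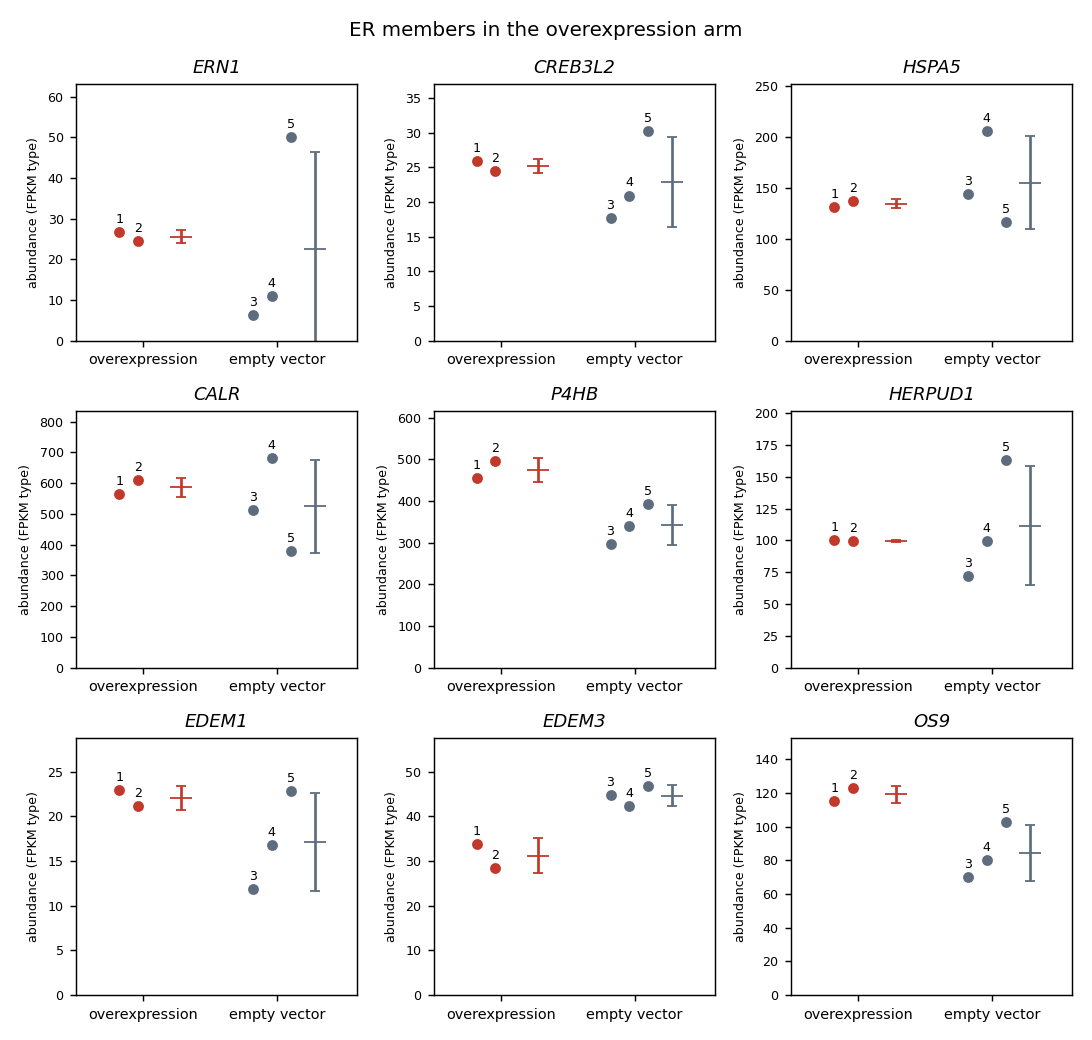
Abundance (FPKM type, y axes from 0) of 9 members in overexpression libraries (red, left, n = 2) and empty vector libraries (grey, right, n = 3), with replicate numbers and mean ± SD; the lower bar of ERN1 is cut at 0. Empty vector replicate 5 is the highest point for ERN1, CREB3L2, HERPUD1 and EDEM3 and the lowest for HSPA5 and CALR.

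Members listed at 0 carried no usable fold change. ATF6 was at 26.7 and 0 in overexpression libraries, against 20.3, 21.8 and 18.7 in empty vector libraries. CANX was at 258 and 230 in overexpression libraries, against 0, 237 and 208 in empty vector libraries, and PDIA5 at 23.7 and 25.1 in overexpression libraries, against 0, 29.6 and 0 in empty vector libraries. UBE2J1, UBE2G2, VCP and MBTPS2 also had at least 1 library at 0. The plasma cell markers MZB1 and TNFRSF17 were likewise at 0 in empty vector replicates 3 and 4. Of the other pathway genes, 91 were tested and limma called 0 in either direction, with 18 at an unadjusted p under 0.05 (19.8%, against 11.5% of all genes). XBP1 gave 0.19 (adjusted p = 0.80), EIF2AK3 -0.15 (adjusted p = 0.797) and ATF4 0.04 (adjusted p = 0.952). The stress genes described for the knockdown are given here after their values were seen. TRIB3 stood at 29.2 and 35.8 in overexpression libraries, against 9.47, 13.9 and 19.9 in empty vector libraries (1.17, SE 0.33, adjusted p = 0.364). ATF3 stood at 23.9 and 23.3 in overexpression libraries, against 3.72, 6.28 and 13.5 in empty vector libraries (1.63, SE 0.52, adjusted p = 0.388). For both, and for PPP1R15A (1.30, SE 0.67, adjusted p = 0.536) and NFE2L1 (0.41, SE 0.15, adjusted p = 0.431), the overexpression libraries lay above all empty vector libraries, and none of the 4 passed the test. Of all 10279 genes tested, 23.1% were higher without overlap in this way and 11.1% lower. CHAC1 gave 0.65 (SE 0.85, adjusted p = 0.801) with overlap. DDIT3 was listed at 0 in 4 of the 5 libraries.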

How the data were processed

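RNA-seq abundances of 11 libraries in 4 groups were used from 2 tables. The authors deposited values of FPKM type, scaled for gene length and depth, although per the file headers no unit is named, and FPKM, RPKM and TPM cannot be told apart from the values. Each table also holds the authors' own p-value per gene, per the file headers, which was not used for any result. Reads were aligned with TopHat to hg19, per the submitters' processing notes. No source used here names the quantifier or annotation. The tables hold no counts, so depth is unknown and no interval is given. Listed values summed to 501348 to 524966 in shRNA libraries and 470294 to 526068 in scramble libraries. They summed to 498485 and 502349 in overexpression libraries, against 425155 to 426112 in empty vector libraries. This difference in sums follows the groups, and its part in the fold changes was not tested.

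Each table was analysed alone, since they were normalised separately. Values were taken as log2(value + 1). Genes with at least 1 in as many libraries as the smaller group (3 for knockdown, 2 for overexpression) were tested with limma-trend and robust variances (limma 3.58.1, R 4.3.3), as a two-sided test. P-values were adjusted by Benjamini-Hochberg across every gene tested, with 0.05 as threshold. Fold changes are differences on that log2 scale, which understates changes of low genes. Tables and plots used Python 3.11.15, pandas 2.3.3, numpy 2.4.6 and matplotlib 3.10.9. The fit was tested on simulated data with known changes. The simulation held only genes with no 0, had no pairing, and used changes larger than those of the members called. It therefore does not show how well changes of that size are found.

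Shared replicate numbers 1 to 3 in the knockdown were checked by correlating deviations from group means across genes: 0.341, 0.270 and 0.273 for equal numbers, against -0.277 to 0.0936 for the rest. The equal numbers were therefore read as possible pairs, which no label states, and were fitted as a block in an alternative fit. Results given without mention of the block come from the fit without pairing. Blocked values stand beside results whose call they change.

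The members and all gene lists were chosen with earlier results of these data known. Named were every sensor, folding and ERAD members past the threshold in either fit or among the 6 smallest adjusted p of their class, the 3 most abundant of each class, up to 8 other pathway genes, and XBP1, EIF2AK3, ATF4 and DDIT3. Members named beyond this rule were chosen after their values were seen. Alternatives were scaling by quantiles or by the median of ratios, pseudocounts of 0.1 and 0.5, a filter at 5 or none, plain limma variances, leaving out each library, the block, and the overexpression table without genes listed at 0. Promoters came from RefSeq on GRCh38.p14, another build than the files', and were matched by symbol.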

Additional observations from a re-analysis of the deposited data

How the results depend on the processing

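With shRNA against scramble, the 4 members higher were 1 with no filter and 8 in the block without pair 1, and ranged from 0 to 5 with 1 library left out. The 0 members lower were 1 under quantile normalisation and 1 with a filter at 5 (CALR in both), 4 with the replicate block, 3 with the block and median-of-ratios scaling, and 9 in the block without pair 1. They stayed at 0 with any 1 library left out. Of the other pathway genes, the 12 higher were 22 in the block without pair 1 and ranged from 2 to 14 with 1 library left out. The 1 lower was 0 with a filter at 5, 3 with the block, 3 with the block and median-of-ratios scaling, 9 in the block without pair 1, and 0 to 1 with 1 library left out. The last 2 kinds of block fit were chosen after seeing the data, and the one without pair 1 rests on 2 pairs. Over all genes, 462 higher and 139 lower became 377 and 206 under quantile normalisation, 219 and 50 with no filter, 894 and 401 with the block, and 1391 and 805 in the block without pair 1, while the lower count was 87 without trend. With 1 library left out they ranged from 50 to 500 higher and 1 to 129 lower. Among the genes reported here, the block changed no call other than those named above. ATF6 changed sign in the block without pair 1 (0.0416), as did SELS (0.0214). With 1 library left out ATF6 ranged from -0.0926 to 0.0209, WFS1 from -0.0473 to 0.20 and SELS from -0.27 to 0.0178.

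With overexpression against empty vector, members called ranged from 0 to 1 higher (PDIA5) and 0 to 1 lower (ATF6) with 1 library left out, both genes being listed at 0 in some library. Other pathway genes ranged from 0 to 2 in either direction. Over all genes, 63 higher and 31 lower were 17 and 19 with a filter at 5 and 33 higher with a pseudocount of 0.1. With 1 library left out they ranged from 50 (without overexpression replicate 1) to 258 (without empty vector replicate 5) higher and from 30 to 98 lower, with 92 lower without empty vector replicate 5, 98 without overexpression replicate 1 and 77 without overexpression replicate 2. Both counts were 0 without genes listed at 0. Quantile normalisation moved the median of all genes by -0.13, and under it MBTPS1, SELS and ATF4 gave -0.13, -0.15 and -0.13. Under median-of-ratios scaling they gave -0.0615, -0.0363 and -0.0384. With 1 library left out ATF6 ranged from -4.41 to 0.38, MBTPS1 from -0.0708 to 0.0617, CALR from -0.0113 to 0.41, SELS from -0.0475 to 0.20, HERPUD1 from -0.35 to 0.23 and ATF4 from -0.12 to 0.16. No paired analysis was possible for overexpression because its groups share no replicate numbers. Where a value changed, the cause was not tested.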
